A study of Mus musculus with 8 samples.

Results

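The comparison described here is that of 2 hairpins in spleen: the 2 libraries of spleen CD4+ T cells that carried a short hairpin RNA against Mdr1 were set against the 2 that carried a control hairpin against CD8. These are 4 of the 8 RNA-seq libraries of the series, and they were chosen by the tissue and hairpin written in their titles. Each library is 1 combination of hairpin and host, so the comparison consists of 2 host-matched pairs. The genes of interest are those that differed in the same direction in both pairs.

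The cells were effector CD4+ T cells with a congenic marker, delivered by transfer and sorted, roughly 10000 per library, at 6 weeks. All hosts were Rag1-/- on the C57BL/6 background, and so lacked endogenous T and B cells but kept their myeloid, erythroid and innate lymphoid cells. Hosts of one pair were Slc10a2 +/+ and hosts of the other Slc10a2 -/-. Slc10a2 encodes Asbt, the bile acid transporter of the ileum, and the titles write these hosts as Asbt +/+ and Asbt -/-. The hairpins were carried in the LMPd retrovirus. A separate label field names LMPd shMdr1 for all 8 libraries, so the hairpin was taken from the titles. The labels give neither the age of the mice, nor the genotype of the transferred cells, nor whether cells of several mice were pooled or which libraries shared an animal. Since each combination was sequenced once, a p-value below compares a difference with the scatter of single libraries, and part of that scatter may be technical. In sorted bulk RNA, fewer cells of a type and less RNA per cell cannot be told apart.

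Mdr1, or P-glycoprotein, is an efflux pump of the ABC transporter family that uses ATP to move hydrophobic compounds out of the cell, and in mice it is encoded by Abcb1a and Abcb1b. In the ileum CD4+ effector T cells meet bile acids, and Mdr1 is known to protect such cells there. The spleen is a lymphoid organ outside the enterohepatic circulation, where T cells of the same hosts are found without that local exposure. Helper T cells are commonly sorted by the cytokines they make: IFN-γ for type 1, IL-4, IL-5 and IL-13 for type 2, IL-17A and IL-22 for type 17. FOXP3 marks regulatory cells.

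The 4 spleen libraries held between 1821772 and 2250491 counts and between 12324 and 13184 genes with a count. Spearman's rho between them ranged from 0.876 to 0.922 over 10000 tested genes. Levels below are CPM, counts divided by a library size that was scaled by TMM, a normalisation that equalises the bulk of genes. They can be compared between libraries but not between genes, because they are not divided by length. Mitochondrially encoded genes took 6.63% of counts in the shMdr1 and 7.33% in the shCD8 library of Asbt+/+ hosts, against 26.8% and 17.6% in Asbt-/- hosts. Hemoglobin genes took 3.69% of counts in the shMdr1 library of Asbt-/- hosts and between 0.109% and 0.554% in the other 3. All 20 genes of a CD4 T cell list were detected, and their summed level lay between 9455 and 10335 CPM. Of the 2 CD8 genes, Cd8a had 31, 7, 0 and 0 counts and Cd8b1 had 0, 8, 1 and 2, in the order shMdr1 and shCD8 of Asbt+/+ hosts, then shMdr1 and shCD8 of Asbt-/- hosts. That order is used for every run of 4 values below.

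Transcripts of the hairpin's target were lower with shMdr1 in both hosts, but by an amount within the spread between libraries. Abcb1a stood at 18.7 CPM with shMdr1 and 40.8 with shCD8 in Asbt+/+ hosts, and at 22.2 and 29.7 in Asbt-/- hosts, from 36 to 95 counts per library. Both shMdr1 libraries thus lay below both shCD8 libraries, an absence of overlap shared by 34.5% of all tested genes in either direction. The fitted log2 fold change was -0.77 ± 0.75 (SE, n = 2 libraries per hairpin), with an edgeR adjusted p of 1.00. Abcb1b, the second Mdr1 gene, had only 7 to 18 counts, with log2 ratios of 0.54 and -0.87 in the Asbt+/+ and Asbt-/- pairs. Any reads shared by these related genes may have been split unevenly between them.

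Among 15 transporters of the same ABC classes, 12 had enough counts to be tested. The median fold change was -0.44 on the log2 scale, beside 0.00 over all tested genes. None was higher with shMdr1 in both pairs and 4 were lower in both, beside 27.1% higher and 27.4% lower among all tested genes. Those 4 were Abcb1a, Abcc1, Abcc5 and Abcg2. Abcc1, which exports glutathione conjugates and leukotrienes, stood at 22.1, 27.9, 24.0 and 50.3 CPM. The edgeR test called none of the 12. The list of bile acid and xenobiotic receptors and targets held 17 genes, of which 5 were tested. In both pairs 1 was higher and 1 lower, beside 27.1% and 27.4% of all tested genes, and the median was -0.16. Nr1i3, the receptor CAR, had 0 counts in every spleen library, which allows up to 3 counts in each. Nr1h2, the oxysterol receptor LXRβ and the 1 member higher with shMdr1 in both pairs, stood at 32.5, 13.8, 49.9 and 23.0 CPM. Its log2 fold change was 1.17 ± 0.88 (edgeR adjusted p = 1.00).

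No gene passed the edgeR quasi-likelihood test at an adjusted p of 0.05 when all 8 libraries were fitted with separate hairpin and host effects in each tissue: 0 of 10000 genes (0%). At an unadjusted p under 0.05 there were 62 genes, fewer than the 500 that chance alone gives. Limma-voom also called 0, with 84 genes under an unadjusted 0.05. The DESeq2 Wald test on the same design called 3 (0.0300%), namely Ifitm1, higher with shMdr1 (0.0100%), and Ccl1 and the predicted gene Gm44369, lower (0.0200%), with 80 under an unadjusted 0.05. In this fit the common biological coefficient of variation was 0.675, with 2 residual degrees of freedom. Its spread came from the small intestine libraries as well as from spleen. In small intestine of Asbt+/+ hosts, the shCD8 library had only 8456 genes with a count, against 11345 to 12513 in the others of that tissue. The shMdr1 library of those hosts had 18.3% of counts in mitochondrial genes, against 7.06% to 8.62% in the others. The part of these Asbt+/+ libraries in the spread was not told apart from that of the other small intestine libraries.

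Fitted alone, the 4 spleen libraries gave calls. The edgeR test called 82 of 8993 genes (0.912%), 50 higher (0.556%) and 32 lower (0.356%) with shMdr1, with 848 under an unadjusted 0.05 where chance gives 450. Of these 82, 76 had the same sign in both pairs and 6 had opposite signs, beside 54.5% of all tested genes with the same sign. A test on these 4 libraries favours genes whose pairs agree, so the shared sign of called genes is not separate evidence. Some called genes, such as Camp and Ngp, differed in 1 pair only. The fit had 1 residual degree of freedom. The DESeq2 Wald test on the same 4 libraries called 17 (0.189%), 10 higher (0.111%) and 7 lower (0.0778%), all with the same sign in both pairs, and gave no adjusted p to 7671 genes. Both tools called 14 genes. The 9 higher genes were Ifitm1, Ifitm2, Ctsw, Tcirg1, Acap1, Lars2, Erdr1, Ccdc88b and Hmha1, and the 5 lower were Cxcl3, Il17a, Il22, its duplicate Iltifb, and Mgst2. When all 8 libraries were kept, only Ifitm1 of these 14 passed any tool run, by DESeq2.

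Counted without a test, 54.5% of the tested genes had ratios of the same sign in both host pairs, 27.1% higher and 27.4% lower with shMdr1. These shares are the background for the list counts given here, which are not tests. Both shMdr1 libraries lay above both controls for 16.8% of tested genes and below both for 17.7%. Most named genes were picked partly by ratios in the same direction in both pairs, which favours such an absence of overlap. Past 2-fold in both pairs were 212 genes higher (2.12%) and 194 lower (1.94%), while 291 genes (2.91%) went past 2-fold in opposite directions. Most of them had low levels. In a single pair, 16.1% of genes were past 2-fold in Asbt+/+ and 25.8% in Asbt-/- hosts. Among the 5530 genes with a mean of at least 20 CPM in either hairpin, 51 were higher (0.922%), 45 lower (0.814%) and 26 opposite (0.470%). Just inside the 2-fold limit lay Tcirg1 with log2 ratios of 1.00 and 1.57 and Itgae with -1.02 and -1.85, and just outside it Rbm19 with 1.10 and 1.00 and Akap12 with -0.99 and -0.99. Across the 5102 genes with a mean spleen level of at least 20 CPM, the ratios of the pairs had a Pearson correlation of 0.19 and a Spearman correlation of 0.21, and SDs of 0.52 in Asbt+/+ and 0.71 in Asbt-/- hosts. Genes are not independent replicates, and all ratios of a pair share the same pair of libraries.

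**Figure D1:**
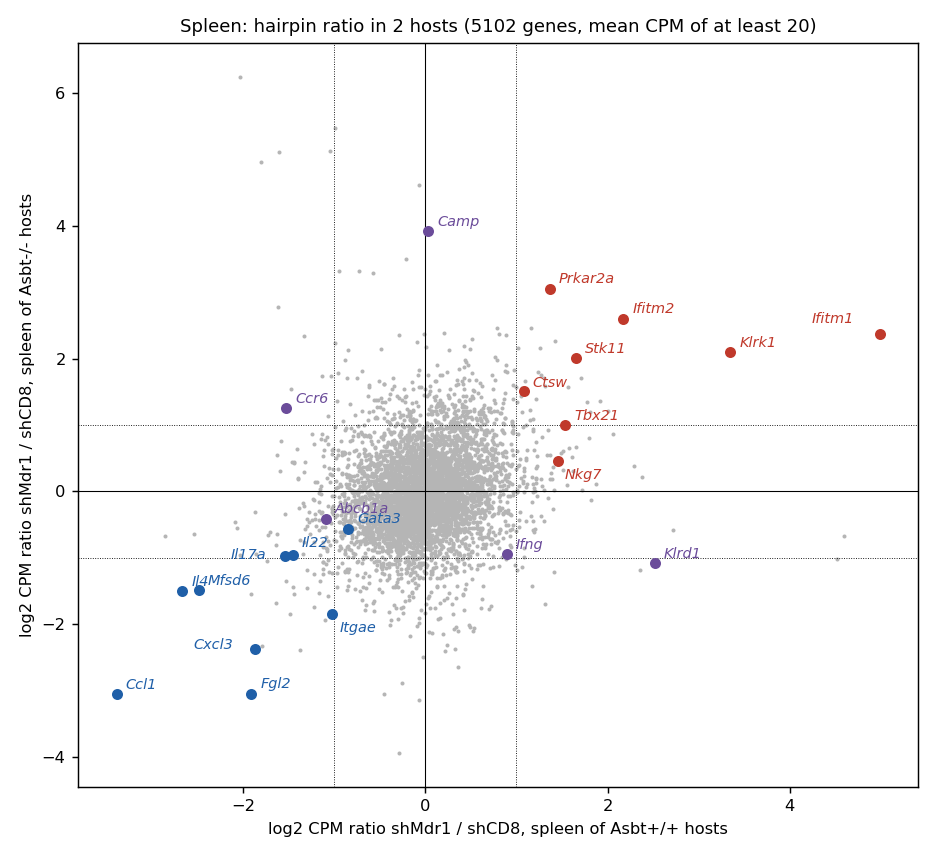
Log2 CPM ratio of shMdr1 to shCD8 in spleen of Asbt+/+ hosts (x axis) and of Asbt-/- hosts (y axis), 1 point per gene for the 5102 genes with a mean of at least 20 CPM; dotted lines mark 2-fold. Red, blue and purple points are named genes higher in both pairs, lower in both pairs, or otherwise discussed; Ifitm1 and Ifitm2 lie in the upper right corner, Ccl1, Fgl2, Cxcl3 and Il4 in the lower left, and most genes within 2-fold on both axes.

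The interferon-induced transmembrane genes were higher with shMdr1 in both hosts. Ifitm1, Ifitm2 and Ifitm3 encode small membrane proteins that restrict virus entry, and they are neighbours on mouse chromosome 7. The chemokine Cxcl3 and the cytokine Il17a were among the clearest lower genes. The 250 bases before the RefSeq transcription start of these 5 genes are shown, because the first 3 are neighbours that differed in the same direction and the other 2 were called lower by both tools in spleen alone. They were read from RefSeq's table for GRCm38.p6, a build other than the mm9 of the counts, and run 5′ to 3′ on the strand of the gene. Capitals mark matches to the motifs searched on both strands: GAAA, any 2 bases and GAAA, the core of an interferon regulatory factor element, found in 2.98% of 32851 such promoter windows; TTCNNNGAA, a STAT element, in 7.02%; AGGTCA, a nuclear receptor half-site, in 14%; TGANTCA, an AP-1 site, in 6.75%; and GGGA, any base and TTTCC, an NF-kB site, in 0.356%. The windows are chr7:140967826-140968075 (plus strand), chr7:140955962-140956211 (minus), chr7:141010745-141010994 (minus), chr1:20730655-20730904 (plus) and chr5:90785851-90786100 (plus).
Ifitm1: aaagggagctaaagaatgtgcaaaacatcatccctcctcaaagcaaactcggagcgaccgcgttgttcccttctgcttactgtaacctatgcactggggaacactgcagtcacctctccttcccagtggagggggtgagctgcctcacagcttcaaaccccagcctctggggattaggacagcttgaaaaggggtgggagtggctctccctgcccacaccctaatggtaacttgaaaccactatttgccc
Ifitm2: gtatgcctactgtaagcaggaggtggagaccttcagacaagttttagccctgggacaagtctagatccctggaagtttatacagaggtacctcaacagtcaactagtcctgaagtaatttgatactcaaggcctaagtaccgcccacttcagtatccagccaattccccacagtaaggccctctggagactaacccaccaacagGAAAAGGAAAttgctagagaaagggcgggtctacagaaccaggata
Ifitm3: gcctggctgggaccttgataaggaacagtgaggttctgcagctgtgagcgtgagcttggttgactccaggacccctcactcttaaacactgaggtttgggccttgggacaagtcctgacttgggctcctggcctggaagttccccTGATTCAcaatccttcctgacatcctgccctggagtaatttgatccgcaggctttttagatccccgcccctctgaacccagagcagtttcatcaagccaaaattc
Il17a: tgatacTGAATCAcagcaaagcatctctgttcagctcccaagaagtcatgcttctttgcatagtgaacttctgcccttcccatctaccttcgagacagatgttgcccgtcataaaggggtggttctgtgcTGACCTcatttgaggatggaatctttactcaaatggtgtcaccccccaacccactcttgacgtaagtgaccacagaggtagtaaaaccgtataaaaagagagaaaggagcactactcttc
Cxcl3: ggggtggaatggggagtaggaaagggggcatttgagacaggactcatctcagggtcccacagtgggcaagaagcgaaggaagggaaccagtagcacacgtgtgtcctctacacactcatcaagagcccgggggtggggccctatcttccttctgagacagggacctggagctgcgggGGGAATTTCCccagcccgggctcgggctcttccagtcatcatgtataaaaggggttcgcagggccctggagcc
Ifitm2 held the interferon regulatory factor core from 46 to 37 bases before the start, Ifitm3 an AP-1 site from 105 to 99, and Ifitm1 none of these letters. Il17a held a half-site on the reverse strand from 120 to 115 and an AP-1 site from 244 to 238, and Cxcl3 an NF-kB site from 73 to 64. No motif was shared by all 3 Ifitm windows. A match is a description of the letters, not of a bound site.

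Ifitm1 had 3322, 99, 143 and 34 counts, or 1383, 42.6, 88.0 and 16.3 CPM. The shMdr1 library of Asbt+/+ hosts stood far above the other 3, and the lower shMdr1 library was still above both controls. The ratios were 31.8-fold and 5.17-fold, and the fitted log2 fold change was 3.79 ± 0.67 (edgeR adjusted p = 1.00). With the spleen libraries alone the edgeR adjusted p was 3.57e-31 and that of DESeq2 0.0488. Ifitm2 stood at 415, 91.1, 300.4 and 48.8 CPM, 4.51-fold and 6.06-fold higher with shMdr1, with both shMdr1 libraries well above both controls. Its log2 fold change was 2.40 ± 0.66 (edgeR adjusted p = 1.00), and its adjusted p with spleen alone was 2.52e-16 by edgeR and 1.26e-11 by DESeq2. Ifitm3 stood at 245, 81.3, 125 and 79.5 CPM, again without overlap, with log2 ratios of 1.58 and 0.65. It passed edgeR in spleen alone (adjusted p = 0.00474) but not DESeq2 (0.105).

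The interferon-stimulated list was divided. Of its 29 tested members, the 3 Ifitm genes included, 12 were higher with shMdr1 in both pairs and 6 lower in both, with a median log2 fold change of 0.19, beside 0.00 over all tested genes. Median ratios were 0.09 in the Asbt+/+ and 0.64 in the Asbt-/- pair. Irf7, the transcription factor of the interferon response, had log2 ratios of 0.65 and 0.64. Isg15, a ubiquitin-like modifier, had -0.77 and 1.15, and Rsad2, which encodes viperin, had -0.99 and 2.24, so both went opposite ways in the 2 hosts. Ifi27l2a, an abundant interferon-induced gene, was lower with shMdr1 at 1450, 2688, 1695 and 2667 CPM, with log2 ratios of -0.89 and -0.65 and a spleen-alone edgeR adjusted p of 0.286.

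**Figure D2:**
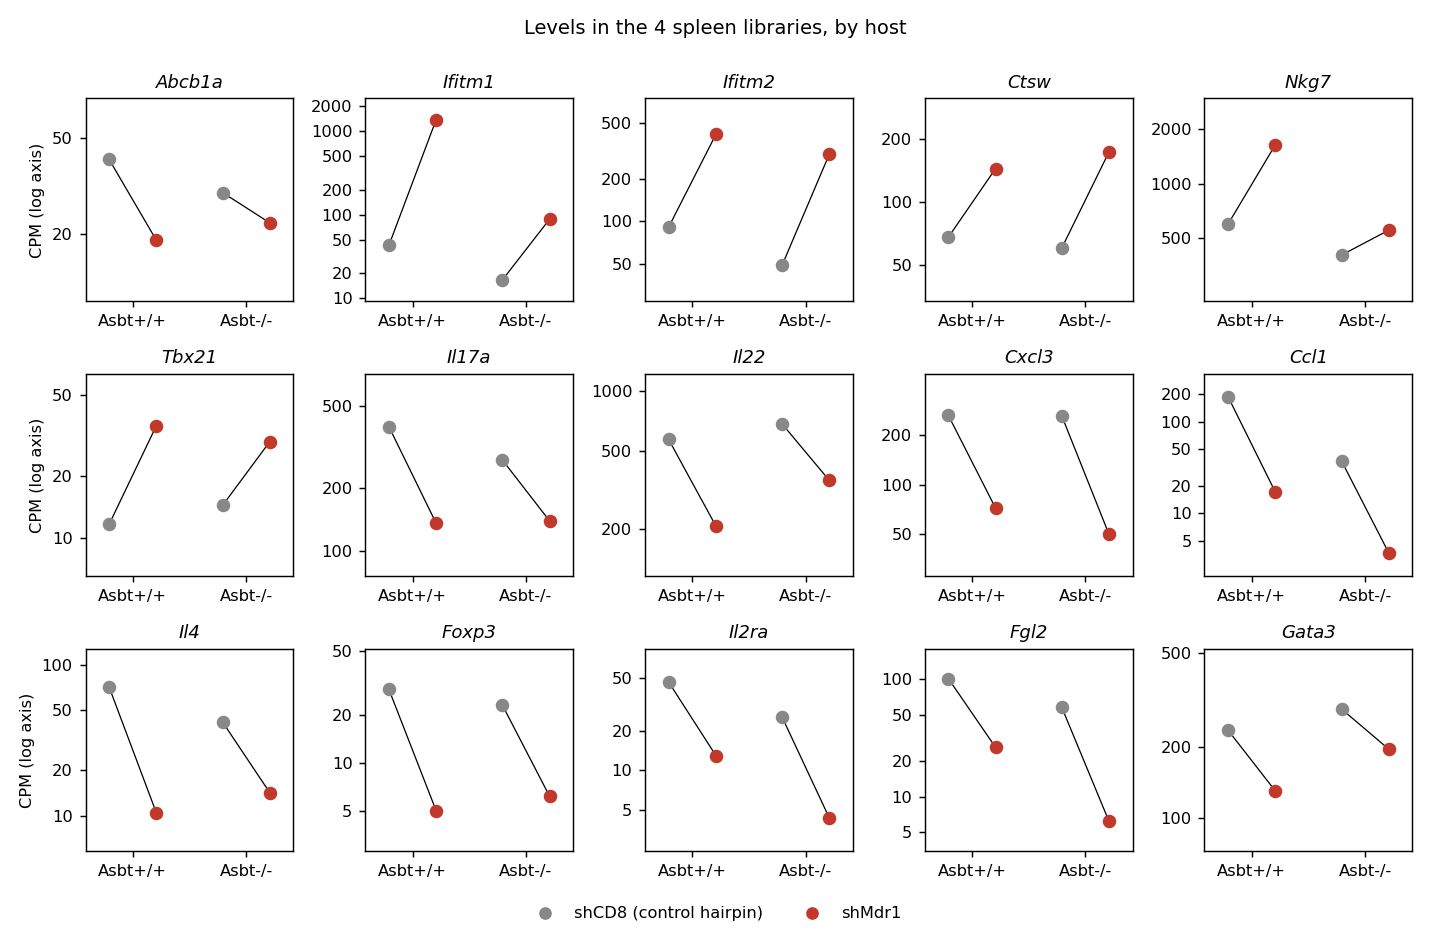
Levels in CPM (log axis, scale differing by panel) of 15 genes in the 4 spleen libraries, 1 point per library, grey for shCD8 and red for shMdr1, with a line joining the pair of one host. Ifitm1, Ifitm2, Ctsw, Nkg7 and Tbx21 are higher with shMdr1 in both hosts and the other 10 genes lower; without replicates within a pair there are no error bars.

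The type 17 cytokine genes Il17a and Il22 were lower with shMdr1 in both hosts. Il17a, which encodes IL-17A, stood at 136, 396, 139.7 and 274 CPM. The shMdr1 libraries lay close together and below both controls, 2.90-fold and 1.96-fold lower than their pair. The log2 fold change was -1.26 ± 0.32 (edgeR adjusted p = 1.00), and in spleen alone the adjusted p was 2.73e-04 by edgeR and 0.0100 by DESeq2. Il22, whose product acts on epithelia, stood at 208, 571, 354 and 685 CPM, 2.74-fold and 1.93-fold lower, again without overlap. In spleen alone its adjusted p was 0.00122 by edgeR and 0.00428 by DESeq2. Reads of Il22 and its near-identical copy Iltifb cannot be told apart with certainty, and Iltifb had ratios of -1.64 and -0.81.

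Other genes of the type 17 list were divided. Of its 19 tested members, 3 were higher and 6 lower in both pairs, beside 27.1% and 27.4% of all tested genes. The median log2 fold change of the list was -0.19. Il17f, the neighbour and homologue of Il17a, had 40, 40, 68 and 28 counts and thus log2 ratios of -0.04 and 1.58. Il21, made by type 17 and follicular helper cells, had ratios of -1.30 and -1.43, and Csf2, which encodes GM-CSF, -0.54 and -1.05. Ccr6, the CCL20 receptor of type 17 cells, stood at 15.4, 46.0, 86.8 and 35.9 CPM, past 2-fold in opposite directions in the 2 hosts. Maf and Rora, transcription factors active in these cells, had fitted log2 fold changes of -0.34 ± 0.30 and -0.33 ± 0.34, about the size of their SE.

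Among chemokine ligands, Cxcl3 and Ccl1 were lower with shMdr1 in both hosts. Cxcl3, a ligand of CXCR2 that draws neutrophils, stood at 72.0, 265, 49.9 and 263 CPM. Its controls were nearly equal and its shMdr1 libraries 3.64-fold and 5.20-fold below them. The log2 fold change was -2.13 ± 0.58 (edgeR adjusted p = 1.00), and in spleen alone the adjusted p was 2.87e-12 by edgeR and 2.21e-07 by DESeq2. Ccl1, a ligand of CCR8 made by activated T cells, had 41, 435, 6 and 78 counts, or 17.1, 187, 3.69 and 37.3 CPM. Levels were lower in Asbt-/- hosts with either hairpin, and the ratio was 10.5-fold and 8.31-fold within the pairs. Its log2 fold change was -3.40 ± 0.53 (edgeR adjusted p = 1.00), and the spleen-alone edgeR adjusted p was 3.01e-15. Of the 12 tested chemokine genes, 4 were lower and 2 higher in both pairs, beside 27.4% and 27.1% of all tested genes. Ccl5, a T cell chemokine, had 7637, 7403, 2780 and 4188 counts and log2 ratios of 0.00 and -0.23.

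Genes of type 2 helper cells were lower with shMdr1. Of the 9 tested members of that list, 8 were lower in both pairs and 0 higher in both, with a median log2 fold change of -1.08, beside 27.4% of all tested genes lower in both pairs. Il4 stood at 10.4, 70.9, 14.2 and 41.7 CPM, 6.35-fold and 2.83-fold lower without overlap. Its log2 fold change was -2.16 ± 0.89 (edgeR adjusted p = 1.00), and it passed edgeR in spleen alone (adjusted p = 4.33e-04). Il5 had 0 counts in both shMdr1 libraries and 9 and 18 in the controls. Gata3, the transcription factor of type 2 cells, stood at 130.3, 235, 196 and 289 CPM with ratios of -0.85 and -0.56, and Il1rl1, the IL-33 receptor, at 16.2, 39.1, 12.9 and 45.5 CPM. Neither passed in spleen alone (edgeR adjusted p = 0.180 and 0.0785). Ccr3, an eotaxin receptor outside the list and noticed from its values, had ratios of -3.30 and -2.64 and a spleen-alone edgeR adjusted p of 0.0124.

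Most genes of regulatory T cells were also lower, with a median log2 fold change of -0.84. In both pairs 11 of 17 tested were lower and 2 higher, beside 27.4% and 27.1% of all tested genes. Foxp3, the defining transcription factor, had 12, 67, 10 and 48 counts, 5.03-fold and 3.38-fold lower in CPM. Il2ra, the high-affinity IL-2 receptor chain CD25, stood at 12.9, 46.9, 4.31 and 25.4 CPM, 3.46-fold and 5.04-fold lower. Itgae, the integrin CD103 that binds E-cadherin, stood at 33.7, 69.2, 27.7 and 102 CPM, and Ikzf2, which encodes Helios, at 85.3, 158, 36.3 and 84.3 CPM. Both shMdr1 libraries lay below both controls for Foxp3, Il2ra and Itgae, as for 17.7% of all tested genes. For Ikzf2 the libraries of the 2 hosts overlapped. All but the fixed gene Foxp3 were picked by ratios in the same direction in both pairs, which favours an absence of overlap. In spleen alone all 4 passed edgeR, with adjusted p of 0.0416, 0.0104, 0.00383 and 0.0382, and DESeq2 gave them no adjusted p. Ctla4, an inhibitory receptor abundant on regulatory cells, had ratios of -0.69 and -0.99 and did not pass (edgeR adjusted p = 0.0729). Tgfb1 and Nrp1 were the 2 members higher in both pairs, with log2 fold changes of 0.84 ± 1.00 and 0.36 ± 0.73.

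Among genes that overlap with these programmes, inhibitory receptors had 10 of 17 tested members lower and 3 higher in both pairs, with a median of -0.54. Over all tested genes, 27.4% were lower and 27.1% higher in both pairs. Tigit stood at 2.91, 17.2, 6.16 and 17.2 CPM and Tox2 at 34.5, 51.6, 25.2 and 90.0, and neither passed in spleen alone (edgeR adjusted p = 0.256 and 0.0685). Follicular helper genes had 6 of 10 lower and 1 higher, with a median of -0.45. In the TNF and costimulation list, 7 of 18 were lower and 0 higher in both pairs. Tnfsf11, the cytokine RANKL, stood at 15.4, 58.0, 33.9 and 66.1 CPM and passed edgeR in spleen alone (adjusted p = 0.0230). Genes of lymphoid homing and memory had 11 of 18 lower and 3 higher.

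Type 1 and cytotoxic genes did not share 1 direction. Tbx21, which encodes the type 1 regulator T-bet, stood at 35.4, 11.6, 29.5 and 14.4 CPM, 2.90-fold and 1.99-fold higher with shMdr1 without overlap, and did not pass in spleen alone (edgeR adjusted p = 0.248). Ifng went opposite ways, at 592, 318, 217 and 419 CPM, and its fitted log2 fold change was -0.02 ± 0.63. Eomes, the related T-box factor, was lower with shMdr1 at 10.8, 31.8, 9.23 and 35.4 CPM. Of the 16 tested type 1 genes, 4 were higher and 3 lower in both pairs, and the median was 0.00. Tnf stood at 96.2, 121, 127 and 111 CPM, with groups that overlapped.

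Cytotoxic granule genes gave 7 higher and 7 lower in both pairs of 17 tested. The median fitted log2 fold change was 0.52, while the median ratios of the pairs had opposite signs, 0.29 in Asbt+/+ and -0.23 in Asbt-/- hosts. Ctsw, a cysteine protease of cytotoxic lymphocytes, stood at 145, 67.9, 174 and 60.3 CPM, 2.12-fold and 2.86-fold higher without overlap. In spleen alone its adjusted p was 8.63e-04 by edgeR and 0.0352 by DESeq2. Klrk1, the activating receptor NKG2D, had 178, 15, 38 and 10 counts, 10.2-fold and 4.26-fold higher in CPM, and passed edgeR in spleen alone (adjusted p = 1.47e-05). Nkg7, a granule membrane protein, stood at 1641, 599, 554 and 404 CPM: the pairs had the same direction, but the shMdr1 library of Asbt-/- hosts lay below the control of Asbt+/+ hosts. Gzmb, Gzmk and Klrg1 were lower with shMdr1 in both pairs, and Klrg1, a receptor of terminally differentiated effectors, stood at 10.4, 80.8, 24.0 and 38.8 CPM.

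Markers of other lymphocytes were highest in the shMdr1 library of Asbt+/+ hosts, the same library that was highest for Nkg7, Klrk1 and Ifitm1. Summed over the list of natural killer and innate lymphoid markers, levels were 1457, 429.9, 295 and 377 CPM. Gzma, a granzyme of that list, stood at 1024, 154, 69.6 and 104 CPM. Klrd1, the CD94 receptor chain, stood at 211, 36.1, 24.0 and 51.7 CPM, and Tcrg-C2, a constant segment of the γδ T cell receptor, at 109, 20.6, 3.08 and 8.14. Both were past 2-fold in opposite directions in the 2 hosts. Ncr1, the defining receptor of natural killer cells, had 0 counts in all 4 libraries, and Klrb1c had 4, 4, 9 and 0. Of 9 tested markers in this list, 2 were higher and 2 lower in both pairs, and their part in the cytotoxic and Ifitm values was not tested. Their summed level was higher with shMdr1 in the Asbt+/+ pair and lower in the Asbt-/- pair. In these pairs the ratios were 31.8-fold and 5.17-fold for Ifitm1, 4.51-fold and 6.06-fold for Ifitm2, and 2.99-fold and 1.57-fold for Ifitm3. They were 10.2-fold and 4.26-fold for Klrk1, 2.74-fold and 1.37-fold for Nkg7, and 2.12-fold and 2.86-fold for Ctsw.

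Myeloid and erythroid transcripts also differed between the spleen libraries. Neutrophil markers summed to 7759, 6836, 3067 and 876 CPM, so that they were higher with shMdr1 mainly in the Asbt-/- pair. Of 9 tested, 5 were higher in both pairs, beside 27.1% of all tested genes. S100a8, a subunit of calprotectin, stood at 4711, 4224, 1622 and 481 CPM. Camp and Ngp, granule genes of developing neutrophils, had ratios of 0.03 and -0.06 in the Asbt+/+ pair and 3.92 and 4.61 in the Asbt-/- pair. Both passed edgeR in spleen alone (adjusted p = 3.67e-06 and 1.47e-05) but not DESeq2 (adjusted p = 0.716 for both). A small edgeR p in spleen alone thus did not require a difference in both pairs. Erythroid markers summed to 2186, 5199, 41827 and 1123 CPM, and all 10 tested had opposite signs in the 2 pairs. Macrophage and dendritic cell markers summed to 962, 660.0, 364 and 529.6 CPM. Of the 13 B and plasma cell genes in the table, 7 had 0 counts in all 4 libraries, among them Ms4a1 and Pax5. The list summed to 142, 201, 82.5 and 158 CPM, and its 3 tested members were lower with shMdr1 in both pairs. The part of these cells in the other differences was not tested.

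Several genes outside immune programmes were also past 2-fold in the same direction in both hosts. Stk11, the kinase LKB1, stood at 47.9, 14.6, 75.7 and 18.2 CPM, with ratios of 1.65 and 2.00 and a spleen-alone edgeR adjusted p of 0.00107. Pold1, the catalytic subunit of DNA polymerase δ, stood at 44.1, 12.9, 58.5 and 17.2 CPM, with a ratio of 1.71 in each pair (adjusted p = 0.00893). Prkar2a, a regulatory subunit of protein kinase A, had ratios of 1.37 and 3.05 (0.0100). For these genes both shMdr1 libraries lay above both controls, as for 16.8% of all tested genes. They were picked by ratios past 2-fold in both pairs, which favours an absence of overlap. Accs and Metap1d, a methionine aminopeptidase, had ratios of 2.52 and 3.13 and of 2.14 and 2.74, but rested on 4 to 13 control counts. Gna11, Spns1 and Lgals4, a galectin, passed edgeR in spleen alone (adjusted p = 0.0382, 0.0437 and 0.0394), while Tk1, Mgst3, Pnpla6 and Mrm1 did not.

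On the lower side, Fgl2, a fibrinogen-like protein secreted by regulatory T cells, stood at 26.2, 101, 6.16 and 57.5 CPM, 3.76-fold and 8.26-fold lower with shMdr1. Its log2 fold change was -2.52 ± 0.59 (edgeR adjusted p = 1.00) and its spleen-alone edgeR adjusted p 3.52e-07. Penk, the precursor of enkephalin, stood at 15.8, 42.6, 4.31 and 26.3 CPM, and Chst2, a sulfotransferase, at 5.83, 35.7, 4.31 and 23.5. Both passed edgeR in spleen alone (adjusted p = 0.0382 and 0.00655). Fut8, the core fucosyltransferase, had ratios of -1.64 and -1.67 and Mfsd6 -2.48 and -1.49 (adjusted p = 0.00665 and 0.0109). Art2a-ps, Wdr76, Atp6v1g3 and Zrsr1 were past 2-fold lower in both pairs but did not pass. None of these lower genes had libraries that overlapped between hairpins, as for 17.7% of all tested genes on the lower side. They were picked by small p or by ratios past 2-fold in both pairs, which favours an absence of overlap.

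Some of the genes called in spleen alone were named after their values were seen. Acap1, a coat protein adaptor that binds integrins, stood at 164, 88.1, 527 and 151 CPM, and Lars2, the mitochondrial leucyl-tRNA synthetase, at 64.5, 34.4, 425 and 113. Tcirg1, a subunit of the vacuolar proton pump, stood at 75.8, 37.4, 207 and 69.0 CPM. For all 3 the shMdr1 library of Asbt-/- hosts was the highest, which is also the library with the largest mitochondrial share of counts. The ribosomal RNA entry Rn18s-rs5 was highest there too, with 0.393%, 0.340%, 2.35% and 1.60% of counts. Erdr1 and Ccdc88b, which the naming rule picked, were also highest in that library, at 59.9, 30.1, 252 and 70.4 CPM and at 160.3, 88.6, 415 and 165 CPM. So were other higher genes of this report, among them Ctsw, Stk11, Pold1, Prkar2a, Gna11, Spns1, Accs, Metap1d, Nr1h2 and Ftl1. Ifitm1, Ifitm2, Klrk1, Nkg7 and Tbx21 were instead highest in the shMdr1 library of Asbt+/+ hosts. The part of RNA quality or of ribosomal RNA reads in any of these levels was not tested. Mgst2, a microsomal glutathione transferase, was lower at 109.9, 246, 180.4 and 351 CPM, with an adjusted p in spleen alone of 0.00491 by edgeR and 0.0463 by DESeq2. Adgrg5, an adhesion receptor, had 38, 3, 15 and 1 counts, so that its ratios rest on very few control counts.

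**Figure D3:**
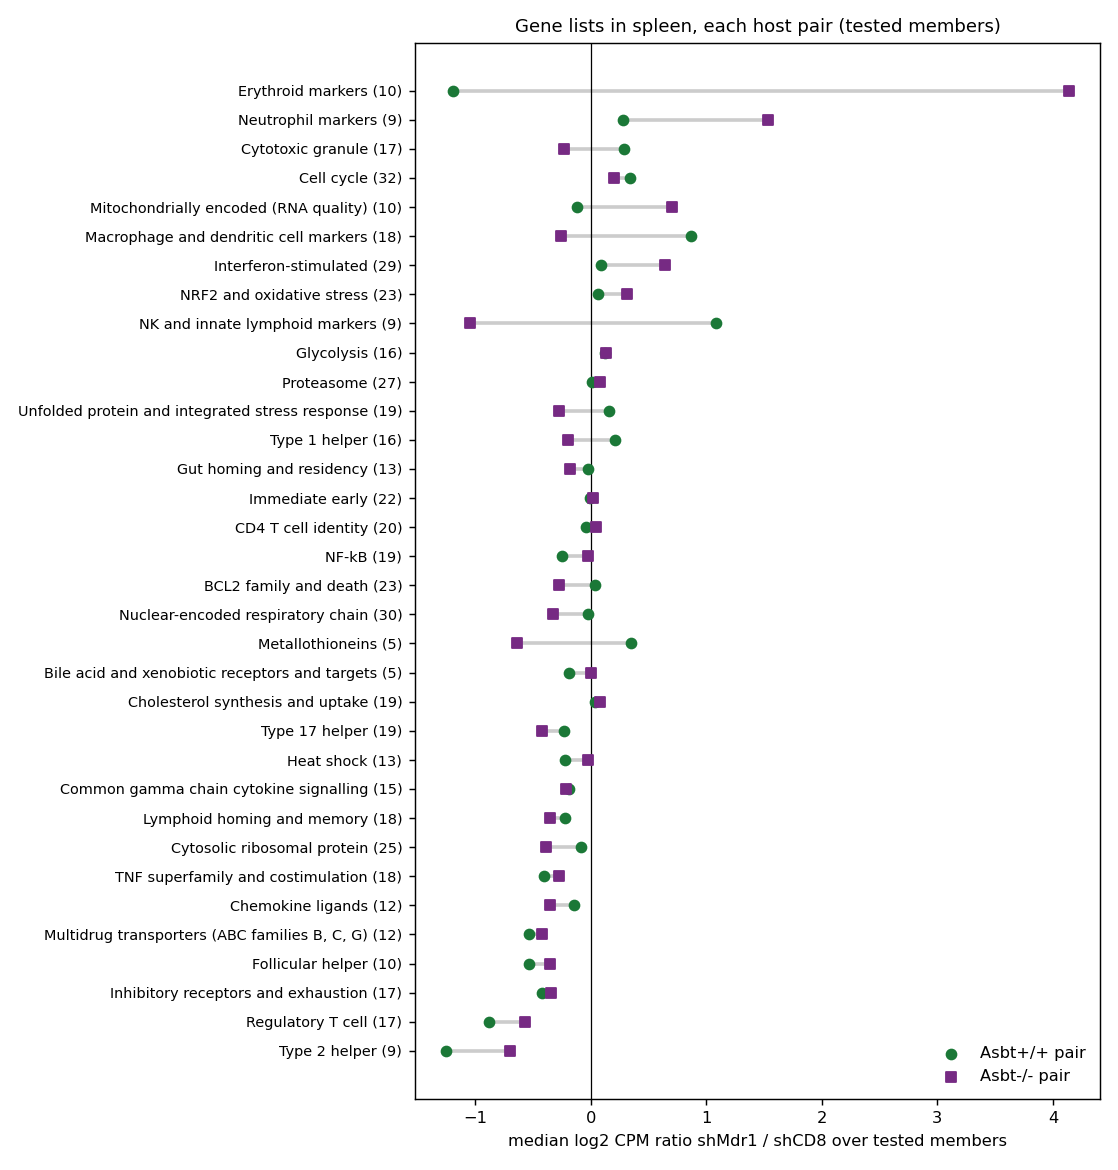
Median log2 CPM ratio of shMdr1 to shCD8 over the tested members (number in brackets) of each gene list with at least 5, in the Asbt+/+ pair (green circles) and the Asbt-/- pair (purple squares), ordered by the fitted median. Type 2 helper and regulatory T cell lists are below 0 in both pairs, with -1.25 and -0.70 and with -0.88 and -0.57, and have the lowest fitted medians; erythroid, innate lymphoid and macrophage marker lists have opposite signs in the 2 pairs.

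Most housekeeping and stress lists had medians near 0, but cell cycle and ribosomal protein genes leaned to 1 side in both pairs. Of 32 tested cell cycle genes, 19 were higher with shMdr1 in both pairs and 4 lower, beside 27.1% and 27.4% of all tested genes. Their median log2 fold change was 0.36, with median ratios of 0.34 in the Asbt+/+ and 0.20 in the Asbt-/- pair. They had 0 calls by edgeR with all 8 libraries or by edgeR and DESeq2 with spleen alone. Birc5, the survivin gene, stood at 485, 347, 240.1 and 145 CPM and Ccna2, cyclin A2, at 115, 72.2, 49.2 and 26.8. Levels were lower in Asbt-/- hosts with both hairpins, so that the libraries overlapped between hairpins. Of 25 ribosomal protein genes, 20 were lower in both pairs and 2 higher, beside 27.4% and 27.1% of all tested genes. Their median was -0.25, with median ratios of -0.08 in the Asbt+/+ and -0.39 in the Asbt-/- pair. Rps18 had ratios of -0.47 and -0.55. NRF2 and oxidative stress genes had 8 of 23 higher and 3 lower, and Ftl1, the ferritin light chain, stood at 445, 281, 693 and 316 CPM (spleen-alone edgeR adjusted p = 0.0450). Hmox1, heme oxygenase 1, had 15, 20, 6 and 9 counts, too few to compare. Heat shock, unfolded protein, glycolysis, proteasome, cholesterol and respiratory chain lists had medians between -0.20 and 0.12, and none of their members was called in spleen alone. Median, count and direction describe these lists and are not a test of them.

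Il17a was lower with shMdr1 in the small intestine too, while Ifitm1 was not higher there. In cells of the small intestine lamina propria of the same kinds of hosts, Il17a had log2 ratios of -1.17 and -1.25, and its spleen effect differed from that in small intestine by -0.05 ± 0.44 (edgeR adjusted p = 1.00). Ifitm1 stood at 43.6, 52.8, 53.9 and 81.8 CPM there, with ratios of -0.27 and -0.59. The difference between the tissues was 4.23 ± 0.88 on the log2 scale (edgeR adjusted p = 1.00; DESeq2 adjusted p = 0.00491). No gene passed edgeR for this difference, and 170 of 10000 had an unadjusted p under 0.05. DESeq2 called Ifitm1 alone. Ccl1 had small intestine ratios of -0.99 and 0.75 and a difference of -3.27 ± 0.69 (edgeR adjusted p = 1.00). Il2ra and Itgae had differences of -2.09 ± 0.81 and -1.30 ± 0.54 (edgeR adjusted p = 1.00 for both). Nkg7 and Tbx21 were higher, and Il4, Foxp3 and Gata3 lower, with shMdr1 in all 4 tissue and host pairs. Of the 212 genes 2-fold higher in both spleen pairs, 64 (30.2%) were above 0 in both small intestine pairs, beside 25.1% of all tested genes. Of the 194 genes 2-fold lower, 41 (21.1%) were below 0 in both, beside 20.7%.

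**Figure D4:**
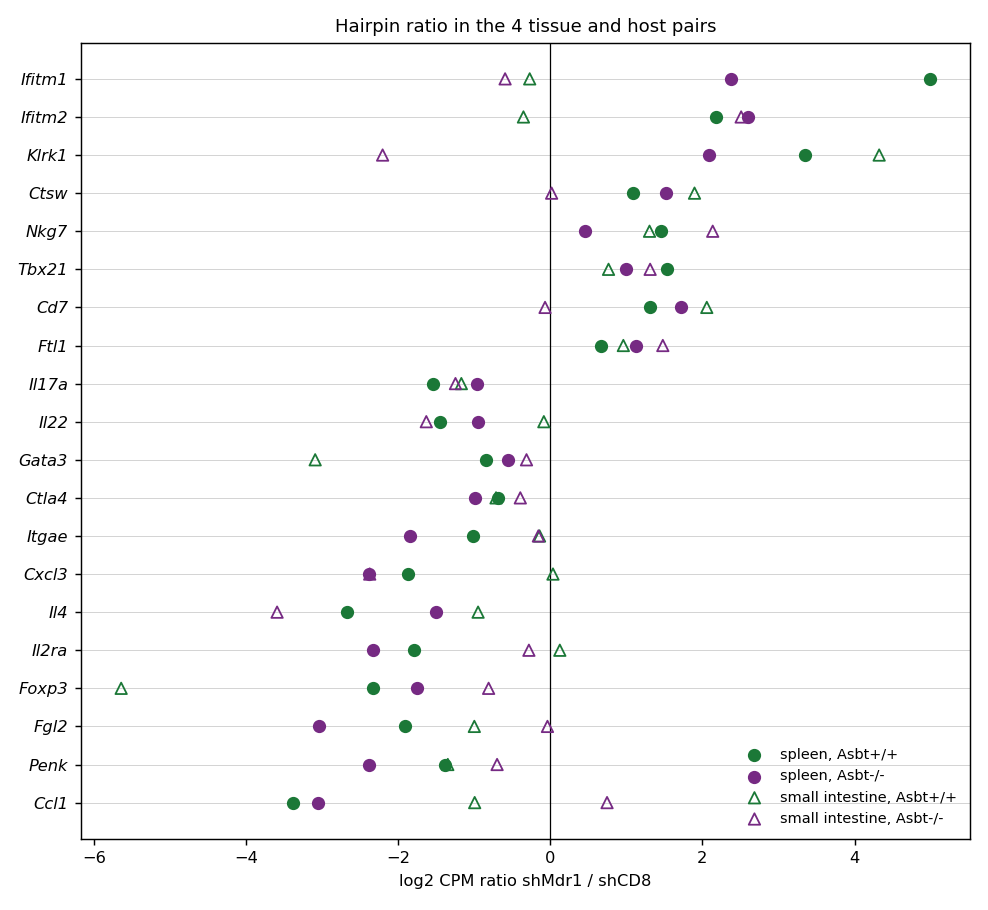
Log2 CPM ratio of shMdr1 to shCD8 for 20 genes in the 4 pairs of tissue and host: filled circles for spleen, open triangles for small intestine, green for Asbt+/+ and purple for Asbt-/- hosts, 1 library per hairpin in each pair. Il17a has ratios between -1.54 and -0.97 in all 4 pairs, whereas Ifitm1 is above 2 in both spleen pairs and below 0 in both small intestine pairs.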

How the data were processed

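RNA-seq gene counts of 8 libraries were used, of which the 4 spleen libraries form the comparison. The deposited values are raw whole-number counts per gene in 1 table, per the file headers. TopHat, HTSeq, DESeq2 and mm9 are named in the submitters' processing notes, while their versions and roles, the annotation and the strandedness of counting were not given in the sources used here. Counts of near-identical, overlapping and antisense genes are therefore uncertain. Per the labels' protocols, cDNA was amplified with a SMART-Seq v4 ultra low input kit, which carries no molecular identifiers, so counting error understates the noise.

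Of 37411 genes, 17570 had a count and 10000 passed filterByExpr (99.52% of counts). The main fit was edgeR 4.0.16 (R 4.3.3): TMM factors and the quasi-likelihood F test, with a separate intercept, hairpin effect and host effect in each tissue (6 coefficients, 2 residual degrees of freedom), adjusted by Benjamini-Hochberg over all tested genes at 0.05. The host term pairs the spleen libraries. SEs are approximate, being derived from the F statistic (size of the log2 fold change over the root of F). Pair ratios (log2 CPM, prior count 2) have no test. Promoter windows came from RefSeq's table. Limma 3.58.1 (voom) and DESeq2 1.42.0 were alternatives, beside other scalings, filters, prior counts, fold limits, the 4 spleen libraries alone (8993 genes, 1 residual degree of freedom) and leaving out each library. The test was also tried on simulated counts.

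The members and the 38 gene lists were chosen with earlier results of these data known. Named genes were 14 fixed genes; the 5 with the smallest p per direction; up to 15 per direction past 2-fold in both pairs with a mean of at least 20 CPM; up to 4 per list with the same direction in both pairs and at least 10 CPM; and up to 5 per direction with opposite ratios past 2-fold and at least 50 CPM. Predicted genes, receptor segments, mitochondrial and hemoglobin genes were left out of the last 4 rules. Genes printed outside these rules were picked with their values in view. Of the gene symbols, 36174 (96.7%) occur in the GENCODE table of names. Some genes of these rules are not reported here.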

Additional observations from a re-analysis of the deposited data

Results flagged for a closer look

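The hairpin effect on Ifitm1, an interferon-induced membrane protein, differed between the tissues. It was larger in spleen than in small intestine by 4.23 on the log2 scale, with an SE of 0.88 (edgeR adjusted p = 1.00 for the difference; DESeq2 adjusted p = 0.00491). Ratios were 4.99 and 2.37 in the Asbt+/+ and Asbt-/- pairs of spleen and -0.27 and -0.59 in those of small intestine.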

How the results depend on the processing

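The number of genes called in spleen depended on the libraries and the tool: 0 with all 8 libraries by edgeR, 3 with the DESeq2 Wald test, 82 with the 4 spleen libraries alone and, in alternatives added after seeing the data, 17 with spleen alone by DESeq2 and 76 without both small intestine Asbt+/+ libraries. Leaving out 1 library gave from 1 to 85 calls. Without either spleen Asbt+/+ library there were 4 (Hba-a1, Hba-a2, Hbb-bs and Hbb-bt) and without either spleen Asbt-/- library 1 (Ifitm1), fits in which the spread came from the small intestine alone and the remaining library of each hairpin in spleen was assumed to vary likewise. Without a small intestine library there were 80 to 85, of which 61 to 63 were among the 82 of spleen alone. DESeq2 size factors, no filter, voom, no host term, the additive fit and removal of hemoglobin, mitochondrial and Rn18s-rs5 counts gave 0. For the difference between tissues the count was 0, with 1 by DESeq2 and from 1 to 2902 when 1 library was left out. Genes 2-fold higher, lower and opposite numbered 212, 194 and 291, against 53, 50 and 50 with a prior count of 10, 333, 317 and 546 without a filter, 628, 536 and 852 at 1.5-fold, 24, 20 and 21 at 4-fold, and 31, 31 and 19 at a mean spleen level of at least 20 CPM. Of 103 genes, 96 kept their direction in every alternative. Many of the 103 were picked partly by ratios in the same direction in both pairs, which favours a kept direction in refits of the same libraries. The additive fit over both tissues reversed Ifng (0.11), Tnf (0.58), Abcc5 (0.40), Pgd (-0.07), Calr (-0.12) and Pecam1 (0.55), voom gave 0.06 and no host term 0.14 for Ifng. Leaving out 1 library gave ranges of -0.99 to 0.64 for Abcb1b, -0.95 to 0.89 for Ifng and -0.35 to 0.20 for Tnf. The cause of these changes was not tested. The host term pairs the spleen libraries, and the labels carry no replicate numbers for a further block. Of 575 list medians under alternatives, 470 stayed within the spread between host pairs. Genes with few counts, such as Adgrg5, Il5 and Foxp3, are limited by depth.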
